A study of Mus musculus with 12 samples.

Results

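FGF ligands and FGF receptors were followed in mouse pre-iPSCs, clonal cells that stalled late in reprogramming with the Nanog-GFP reporter still silent. The 9 genes were chosen by symbol: the ligands Fgf1, Fgf2, Fgf4, Fgf7 and Fgf10 and the receptors Fgfr1, Fgfr2, Fgfr3 and Fgfr4, out of 20325 genes in the files. The rule uses the symbol alone, and the list was drawn up with earlier results of these data known. All 9 were found, and 5 of them (Fgf1, Fgf4, Fgfr1, Fgfr2 and Fgfr3) reached at least 10 counts in at least 3 libraries, the minimum for testing, while Fgf2, Fgf7, Fgf10 and Fgfr4 did not.

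RNA was sequenced from 12 libraries, 3 biological replicates (A, B and C) for each of 4 treatments. Every group was the same kind of cell, a pre-iPSC line made from Nanog-GFP fibroblasts with retroviral Oct4, Sox2, c-Myc and Klf4, grown with serum and LIF and kept on gelatin, off the feeder layer, during treatment. After 48 h the groups differed in what the medium held: DMSO as the control, ascorbic acid (AA) at 50 μg/ml, 2i (the MEK inhibitor PD0325901 at 1 μM and the GSK inhibitor CHIR99021 at 3 μM), or AA+2i together. A clonal line stands for 1 reprogramming event, and the pre-iPSCs still carry the retroviral factors, which limits the groups as a model.

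FGF ligands are secreted proteins that bind receptor tyrosine kinases at the cell surface, with heparan sulfate as a cofactor. The bound receptor recruits adaptors that switch on RAS, RAF, MEK and ERK, and ERK activity turns on ETS factors and a layer of feedback inhibitors (the Sprouty, Spred and Dusp families). In mouse pluripotent cells Fgf4 is the main autocrine ligand, and its signal through ERK moves the cells away from the naive state. The MEK inhibitor in 2i acts in this pathway, downstream of every gene described here.

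Expression is given as TPM, which is scaled by gene length, so that levels can be compared between genes, and summed over the RefSeq models of a gene, so that splice forms (3 models of Fgfr1, 2 of Fgfr2 and 4 of Fgfr3) are not told apart. The libraries held between 16173322 and 54392719 expected counts, and DMSO B and AA B were the deepest. Library composition differed by GC content: genes as GC-rich as Fgfr1 (55.3% GC) stood 0.85 lower on the log2 scale in DMSO A and 0.66 lower in AA A than the mean of the libraries, and 0.50 higher in AA+2i C. The 5 markers of pluripotent or epithelial cells (Pou5f1, Sox2, Sall4, Cdh1 and Epcam) were all at 1 TPM or more in every library, though reads of the retroviral Oct4 and Sox2 can count toward Pou5f1 and Sox2. The 7 naive markers found in the files summed to 47.8 to 97.1 TPM with DMSO and 41.7 to 64.0 TPM with 2i, against 1270 to 1720 TPM with AA and 607 to 903 TPM with AA+2i. Dppa5a held most of the sum with AA and with AA+2i. The other 6 naive markers summed to 11 to 18.4 TPM with DMSO, 18.6 to 39.0 TPM with 2i, 41.3 to 60.1 TPM with AA and 96.0 to 156 TPM with AA+2i. The list also held Tfcp2l1, which was not found under that symbol and is missing from these sums. The paper, which writes Tcfcp2l1, reports that this gene needed 2i to rise. Of 10 fibroblast markers, Lum was at 0 in every library and S100a4 made up most of the sum. Without S100a4 the sum was 8.80 to 21.6 TPM with DMSO, 11.8 to 20.9 TPM with AA, 9.38 to 13 TPM with 2i and 8.88 to 14.6 TPM with AA+2i. The 7 primitive endoderm markers summed to at most 4.32 TPM.

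Fgf4 and Fgfr3 are the ligand and the receptor that were called lower with AA+2i at a level above 1 TPM, and their promoters are shown to let a reader see what kind of sequence they start from. Each window runs from 250 bases before to 50 bases after the RefSeq start (build GRCm38.p6, plus strand, chr7:144861136-144861435 for Fgf4 and chr5:33721474-33721773 for the first of the 2 Fgfr3 windows). Capitals mark matches to the searched letters.
Fgf4 promoter: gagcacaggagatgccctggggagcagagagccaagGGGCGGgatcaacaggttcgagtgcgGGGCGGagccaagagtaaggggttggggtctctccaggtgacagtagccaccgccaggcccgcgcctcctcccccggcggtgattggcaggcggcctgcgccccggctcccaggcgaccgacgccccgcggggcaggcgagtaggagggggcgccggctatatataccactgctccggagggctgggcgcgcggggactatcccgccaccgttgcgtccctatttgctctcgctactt
Fgfr3 promoter: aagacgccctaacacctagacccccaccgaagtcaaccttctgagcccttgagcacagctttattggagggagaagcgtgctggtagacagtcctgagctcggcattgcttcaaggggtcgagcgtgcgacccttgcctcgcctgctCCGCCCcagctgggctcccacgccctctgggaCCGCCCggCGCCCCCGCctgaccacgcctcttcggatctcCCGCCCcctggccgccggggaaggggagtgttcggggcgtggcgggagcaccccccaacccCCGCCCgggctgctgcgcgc
Both windows were 69.7% GC, more GC-rich than 89.9% of 32851 promoter windows of 300 bases. They held 28 (Fgf4) and 26 (Fgfr3) CpG dinucleotides. The capitals in the Fgf4 window are 2 GC boxes (GGGCGG). In the Fgfr3 window they are 4 GC boxes on the other strand (read as CCGCCC) and 1 EGR core (GCGGGGGCG, on the other strand, read as CGCCCCCGC), with no overlap between them. A GC box on either strand was present in 35.7% of all windows and the EGR core in 2.91%. An octamer (ATGCAAAT, in 1.74% of windows), a TCF/LEF core (CTTTGAT, 3.73%) and an ETS core (CCGGAAGT, 3.89%) were searched on both strands, and these letters are not in either window. RefSeq windows were matched for Fgf2, Fgf4, Fgf7, Fgf10, Fgfr2, Fgfr3 and Fgfr4.

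Fgf4 also has a well known enhancer in its 3′ untranslated region, where Sox2 and Oct4 bind side by side. A search of the Fgf4 transcript in mm9 for the SOX letters CTTTGTT and the POU letters ATGCTAAT or ATGCAAAT, with 0 to 4 bases between, found 1 match, 1453 bases into the 2302 bases of that region (mm9, chr7:152050299-152050316, plus strand). The SOX and POU letters are in capitals and the 3 spacer bases in lower case.
Fgf4 SOX and POU element: CTTTGTTtggATGCTAAT
The same search on both strands found a match in the 3′ untranslated regions of 2 of 20007 coding genes (0.01%), and Fgf4 is 1 of these 2. The letters were chosen for this element, so the match in Fgf4 was fixed in advance and the share is no test of it.

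Fgf4 (mm9, chr7:152047291-152051148, plus strand), the ligand that pluripotent cells make for themselves, was the dominant ligand and fell with 2i. With DMSO the replicates A, B and C had 54.5, 61.7 and 46.9 TPM, a mean of 54.4 ± 7.41 (SD, n = 3). With AA they had 63.5, 49.7 and 60.0 TPM (57.7 ± 7.17). With 2i they had 25.8, 20.9 and 17.6 TPM (21.4 ± 4.16). With AA+2i they had 28.3, 29.4 and 24.2 TPM (27.3 ± 2.77). Every library that received 2i was below every library that did not, and the libraries of AA and DMSO overlapped, as did those of AA+2i and 2i. Fgf4 made up 95.1% to 99.3% of the TPM of the 5 ligands in each library, so the ligand total followed it. In bulk RNA, fewer cells with the transcript and less transcript per cell cannot be told apart. The fibroblast marker S100a4 also fell, from 339 to 507 TPM with DMSO to 36.7 to 48.3 TPM with 2i, while the sum of the other fibroblast markers overlapped as given above. Within that sum Thy1 was lower (2.64 to 7.21 TPM with DMSO, 0.54 to 1.68 TPM with 2i) and Col3a1 higher (0.04 to 0.19 TPM with DMSO, 0.33 to 0.41 TPM with 2i). The part of these markers in the Fgf4 result was not tested.

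The mean TPM of Fgf4 was 2.54-fold lower with 2i than with DMSO. Its log2 fold change in normalized counts, a different scale, was -1.16 (SE 0.17, adjusted p = 0.00299). The p-value is from edgeR's quasi-likelihood test with Benjamini-Hochberg adjustment over all 13400 tested genes. Among the 5 tested members Fgf4 was the only one called in this comparison, in which 4.42% of all tested genes were called. With AA+2i the change from DMSO was -0.79 (SE 0.16, adjusted p = 0.0141) and the change from AA was -0.90 (SE 0.16, adjusted p = 0.00846). AA alone gave 0.12 (SE 0.16, adjusted p = 0.954), and AA on top of 2i gave 0.37 (adjusted p = 0.486). The comparisons with DMSO share the DMSO libraries. The call with 2i was lost without the B libraries (-1.14, adjusted p = 0.225), without the C libraries (-1.13, adjusted p = 0.0956) and in a fit of the DMSO and 2i libraries alone (-1.15, adjusted p = 0.0514), with nearly the same fold change. Both AA+2i calls were likewise lost when the libraries of any 1 letter were left out, at adjusted p between 0.0566 and 0.274, and in fits of only the groups compared, at adjusted p = 0.0956 (DMSO) and 0.0509 (AA).

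Fgf1, a broadly acting ligand that lacks a signal peptide and binds all FGF receptors, was present at a low level and was lowest with AA+2i. The replicates had 0.31, 0.56 and 0.64 TPM with DMSO, 0.53, 0.67 and 0.81 with AA, and 0.97, 0.63 and 0.60 with 2i. With AA+2i they had 0.16, 0.23 and 0.11 TPM, from 6.46, 11.4 and 6 expected counts. The AA+2i libraries lay below all others, while the DMSO, AA and 2i libraries overlapped. The fold changes with AA+2i were -1.43 against DMSO (SE 0.38, adjusted p = 0.0434), -1.89 against AA (SE 0.38, adjusted p = 0.0136) and -2.14 against 2i (SE 0.38, adjusted p = 0.0251). AA alone gave 0.46 (adjusted p = 0.887) and 2i alone 0.72 (adjusted p = 0.347).

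Against 2i, Fgf1 was the 1 member of 5 called, where 0.91% of all tested genes were called (0.761% higher and 0.149% lower). Against AA, Fgf1 and Fgf4 were called, both lower, where 6.10% of all tested genes were called and 3.29% were called lower. The interaction, the part of the AA+2i change that adding up the single-treatment log2 changes leaves over, was -2.60 for Fgf1 (SE 0.51, unadjusted p = 0.000354, adjusted p = 0.387). edgeR called 0 members for the interaction and 0.0149% of all tested genes. At an unadjusted p under 0.05 the count was 1 member, and DESeq2 called 1 member, Fgf1 (-2.62, adjusted p = 0.017). These values rest on few counts: the call against DMSO was lost with the GC correction (-1.27, adjusted p = 0.0569), without the count minimum (adjusted p = 0.0571) and without the replicates of any letter, from -1.68 (without B, adjusted p = 0.309) to -1.03 (without C, adjusted p = 0.328). Against 2i it was lost without A, B or C (adjusted p = 0.175, 0.726 and 0.264), and against AA without B (0.268) or C (0.194).

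The other ligands of the group were near the limit of counting. Fgf2, the ligand used to grow primed stem cells, was listed at 0 in 11 libraries and had 2 counts in DMSO B. Its RefSeq model is 695 bases long and its exons overlap those of Nudt6 on the other strand, which libraries without strand cannot separate. Fgf7, a ligand of mesenchymal cells that acts on epithelial Fgfr2, reached at most 8 counts in a library. It had 0, 2 and 0 counts with AA against 5.01, 4 and 7 with AA+2i, and 1, 7.56 and 1 with DMSO. Fgf10, a related ligand, also reached at most 8 counts and was at or under 3 counts, after rounding, in 10 of 12 libraries. Without the count minimum, Fgf7 was called higher with AA+2i than with AA (adjusted p = 0.037), on 2 counts in all with AA, and no other comparison of these ligands was called.

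**Figure D1:**
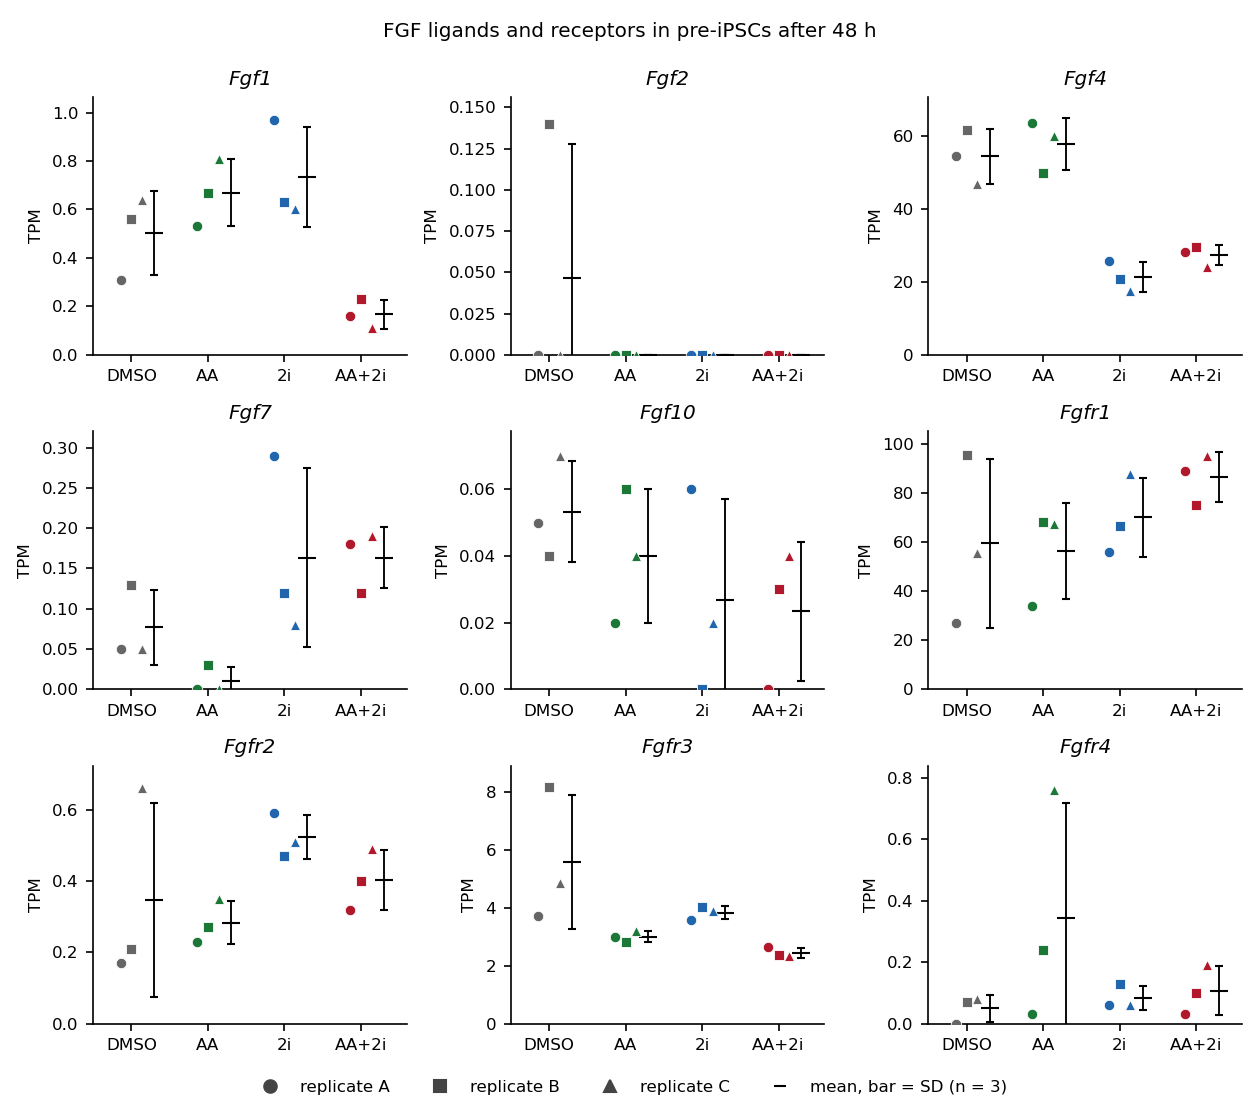
TPM of each of the 9 genes (y axis, linear from 0, scaled per gene) in the 12 libraries by treatment (x axis). Points are replicates A, B and C, and the dash with its bar is the mean and SD of 3 replicates, with bars cut at 0. Fgf4 lies between 46.9 and 63.5 TPM in the 6 libraries without 2i and between 17.6 and 29.4 TPM in the 6 with it.

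Fgfr1 (mm9, chr8:26629264-26686186, plus strand), the main FGF receptor of pluripotent cells, was the most abundant receptor and spread widely between replicates. It had 27.0, 95.6 and 55.7 TPM with DMSO (59.4 ± 34.5) and 33.8, 68.2 and 67.4 with AA (56.5 ± 19.6). The 2i libraries had 56.0, 66.7 and 87.6 TPM (70.1 ± 16.1), and the AA+2i libraries had 88.8, 75.1 and 95.0 TPM (86.3 ± 10.2). DMSO A and AA A were the lowest libraries and DMSO B the highest, so the DMSO libraries span the whole range of the others. Fgfr1 made up 87.4% to 96.9% of the TPM of the 4 receptors. No comparison of Fgfr1 passed the test in the model of the 4 treatments without a correction. Its log2 fold changes were 0.01 with AA (adjusted p = 0.997), 0.48 with 2i (adjusted p = 0.590), 0.81 with AA+2i (SE 0.42, adjusted p = 0.246) and 0.80 for AA+2i against AA (SE 0.42, adjusted p = 0.382).

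The level of Fgfr1 moved with the GC curve of the library. When each library's curve against GC content was subtracted, the SD of its log2 CPM among the DMSO libraries went from 0.82 to 0.33 and among the AA libraries from 0.66 to 0.14. With that correction in the model AA+2i was higher than AA by 0.57 (SE 0.16, adjusted p = 0.0319), and the change with AA+2i from DMSO was 0.41 (SE 0.16, adjusted p = 0.0912). The change with AA was -0.16 (adjusted p = 0.718). The genes most like Fgfr1 across the 12 libraries were Tcirg1 (r = 0.994 for log2(TPM + 1)), Iqsec2 (r = 0.992) and Slc38a7 (r = 0.991), at 58.6%, 59.6% and 55.2% GC, as a description over libraries that share these GC curves.

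Fgfr3 (mm9, chr5:34064373-34079716, plus strand), a receptor best known for restraining bone growth, was second among the receptors and was lowest with AA+2i. It had 3.73, 8.18 and 4.85 TPM with DMSO (5.59 ± 2.31) and 3.57, 4.02 and 3.88 with 2i (3.82 ± 0.23). With AA it had 2.98, 2.81 and 3.21 TPM (3.00 ± 0.201), and with AA+2i 2.64, 2.36 and 2.32 TPM (2.44 ± 0.174). In TPM the AA+2i libraries lay below all others, the AA libraries lay below those of DMSO and 2i, and the DMSO and 2i libraries overlapped. In normalized log2 CPM the AA+2i libraries (2.30 to 2.53) overlapped those of AA (2.48 to 2.71). With the GC curve subtracted, the AA libraries (2.25 to 3.32) overlapped those of AA+2i (1.89 to 2.29) and of 2i (2.71 to 3.17). In normalized counts the change with AA+2i from DMSO was -0.95 (SE 0.25, adjusted p = 0.0386), while the mean TPM was 2.29-fold lower. With AA it was -0.83 (SE 0.25, unadjusted p = 0.00637, adjusted p = 0.188), and with 2i -0.32 (adjusted p = 0.549). AA+2i differed from AA by -0.12 (adjusted p = 0.808) and from 2i by -0.63 (adjusted p = 0.397).

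With Fgf1 and Fgf4, Fgfr3 made 3 of 5 tested members called lower with AA+2i, where 8.34% of all tested genes were called and 4.41% were called lower. With AA alone edgeR called 0 members and 1.34% of all tested genes (0.866% higher and 0.47% lower). There, 1 member had an unadjusted p under 0.05, and DESeq2 called 1, Fgfr3 (-0.84, adjusted p = 0.0347). DMSO B, the highest library for Fgfr3, weighed on the AA+2i result: without the B libraries the change was -0.61 (adjusted p = 0.339). Without A it was -1.17 (adjusted p = 0.0598), without C -1.04 (adjusted p = 0.241), and with the GC correction -1.53 (SE 0.29, adjusted p = 0.00382). Fits of only DMSO and AA+2i (adjusted p = 0.153), without a count minimum (0.0562) or with at least 10 counts in every library (0.0516) also ended the call. The GC curve did not narrow the spread of Fgfr3 in most groups. Subtracting it raised the SD of log2 CPM from 0.13 to 0.60 with AA, 0.17 to 0.23 with 2i and 0.12 to 0.21 with AA+2i. With DMSO the SD went from 0.44 to 0.33. The genes most like Fgfr3 were Napsa (r = 0.942), Lrig3 (r = 0.942) and Lingo3 (r = 0.932), and those most like Fgf4 were Cml2 (r = 0.981), Ddx43 (r = 0.98) and Asap2 (r = 0.976), over the same 12 libraries.

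**Figure D2:**
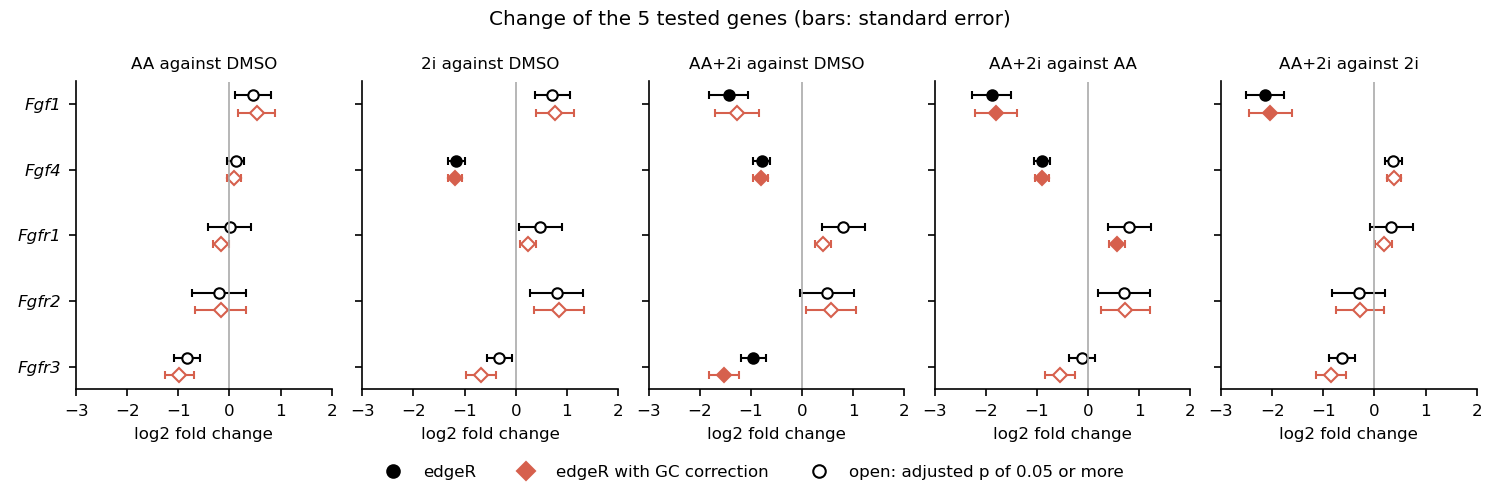
log2 fold change (x axis) of the 5 tested genes in 5 comparisons, from edgeR without (black circles) and with (red diamonds) a correction for GC content, with standard errors. Filled symbols have an adjusted p under 0.05. Fgf4 is near -1 in the 3 comparisons that add 2i to cells without it, at -1.16, -0.79 and -0.90.

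Fgfr1 and Fgfr3 have nearly the same GC content (55.3% and 56.3%). Their ratio within a library cancels the GC curve only if both genes follow it. Among the AA libraries, subtracting the curve raised the SD of Fgfr3 log2 CPM from 0.13 to 0.60. Within their groups, DMSO A and AA A had the lowest ratio. The part of the GC curve in the ratio was not tested. The ratio was chosen after the values were seen. It was 7.23, 11.7 and 11.5 with DMSO and 11.3, 24.3 and 21.0 in the AA libraries. It was 15.7, 16.6 and 22.6 in the 2i libraries, against 33.6, 31.8 and 40.9 when both were given. The AA+2i libraries were above all others, and the 2i libraries were above those of DMSO, while the AA libraries overlapped both. On the geometric scale the ratio with AA+2i was 3.56-fold that with DMSO, 1.97-fold that with AA and 1.95-fold that with 2i. The exact two-sided permutation test gave p = 0.1 for each of these, the smallest that 3 against 3 libraries allow, and 0.3 for AA against DMSO (adjusted p = 0.125 and 0.3 over 5 comparisons), so this test cannot reach 0.05 here.

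**Figure D3:**
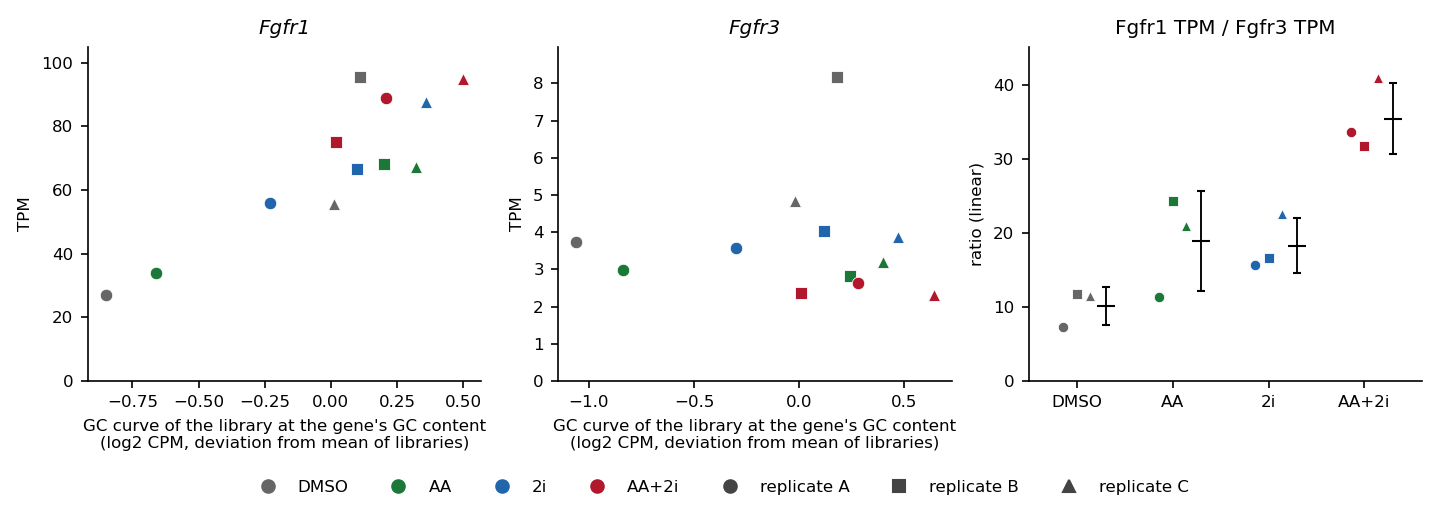
TPM of Fgfr1 (left) and Fgfr3 (middle) against the GC curve of each library at that gene's GC content (log2 CPM, deviation from the mean of the libraries), and the ratio of the TPM values by treatment (right, mean and SD of 3 replicates). DMSO A and AA A sit at the far left with the lowest Fgfr1, at 27.0 and 33.8 TPM. The ratio is between 31.8 and 40.9 with AA+2i and at most 24.3 elsewhere.

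Fgfr2 (mm9, chr7:137306026-137409759, minus strand), the receptor of Fgf7 and Fgf10, and Fgfr4 (mm9, chr13:55254001-55270120, plus strand), a receptor of liver and muscle, were low. Fgfr2 lay between 0.17 and 0.66 TPM over all libraries, with both ends in DMSO (A and C). Its fold changes were -0.21 with AA (adjusted p = 0.963), 0.80 with 2i (adjusted p = 0.494) and 0.49 with AA+2i (adjusted p = 0.522). Without the C libraries they were 0.51 (adjusted p = 1.0), 1.73 (adjusted p = 0.108) and 1.17 (adjusted p = 0.183). Fgfr4 had 0, 5 and 2 counts with DMSO and 1, 21 and 30 with AA. It had 2, 5 and 2 counts in the 2i libraries, against 1, 4 and 8 under AA+2i. Only AA B and AA C passed 10 counts, and AA A, at 1 count, lay with the libraries of the other treatments. In order of mean level, Fgfr1 stood above Fgfr3 and Fgfr3 above Fgfr2 and Fgfr4 in every treatment, and Fgfr2 and Fgfr4 did not differ beyond their spread with AA.

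The genes around the ligands and receptors were taken as lists. The other 17 FGF genes, listed as ligands whether secreted or not, were mostly silent: 4 were tested (Fgf5, Fgf9, Fgf11 and Fgf13). The summed level over all 17 was 4.31 to 10.1 TPM. Most of it came from Fgf11 (means of 1.85 to 3.52 TPM by treatment) and Fgf13 (1.34 to 3.38 TPM), so the sum is no measure of secreted ligand. edgeR called none of the 4 in any treatment against DMSO, where 3 (AA), 1 (2i) and 0 (AA+2i) had an unadjusted p under 0.05 and DESeq2 called 2, 1 and 0. Of all tested genes edgeR called 1.34% (AA), 4.42% (2i) and 8.34% (AA+2i). Between AA+2i and AA, where 6.1% of all tested genes were called, Fgf5 and Fgf13 were called, and both are named after their values were seen. Fgf5, a marker of primed epiblast, had 33.1, 73.1 and 114 expected counts with AA and 3.14, 0 and 1.01 with AA+2i (adjusted p = 0.0146), against 5.91, 6.07 and 9 with DMSO and 0 in every 2i library. Otx2, another primed marker, moved beside it, at 55.8 to 91.9 TPM with AA, 12.5 to 15.1 with AA+2i, 3.66 to 8.46 with DMSO and 1.07 to 1.98 with 2i. Of the 4 primed epiblast markers in the list, Otx2 among them, 3 had a log2 fold change below 0 for AA+2i against AA and 1 above 0. The 1 above 0, Lefty1, had 0.13, 0.92 and 1.36 TPM with AA and 2.02, 1.31 and 3.59 with AA+2i. The share of these markers in the Fgf5 counts was not tested. Fgf13, an intracellular member of the family that does not act as a ligand, was higher with AA+2i than with AA by 1.55 (SE 0.37, adjusted p = 0.033).

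Among 19 tested co-receptors and FGF-binding proteins, 1 rose and 1 fell with 2i, and 2 rose and 5 fell with AA+2i. Of all tested genes, 1.59% were called higher and 2.83% lower with 2i, and 3.93% higher and 4.41% lower with AA+2i. Kl, the co-receptor for the hormone Fgf23, fell from 0.39, 0.91 and 1.00 TPM with DMSO to 0.11, 0.08 and 0.10 with 2i (-2.79, SE 0.41, adjusted p = 0.00332), and to 0.07, 0.09 and 0.08 with AA+2i (-3.01, adjusted p = 0.00151). The glypican Gpc1, a heparan sulfate carrier at the cell surface, rose from 1.88, 12.5 and 4.82 TPM with DMSO to 43.8, 22.5 and 47.3 with AA+2i (2.86, SE 0.70, adjusted p = 0.0304). The glypican Gpc5 rose from 1, 4 and 1 counts with DMSO to 11, 10 and 9 with 2i (adjusted p = 0.0106) and 11, 9 and 19 with AA+2i (adjusted p = 0.00398). The median log2 fold change of the list was -0.34 with 2i and -0.47 with AA+2i, beside -0.02 for all tested genes in both. Without the library DMSO A, 1 rose and 1 fell with AA+2i. Leaving out the libraries of 1 letter left 0 higher and between 0 and 3 lower. Over all tested genes these fits also called fewer, from 526 higher and 591 lower to 312 and 418 without DMSO A. Without the A libraries they called 304 and 341, without B 4 and 14, and without C 169 and 123.

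Of 11 tested heparan sulfate enzymes, 2 fell under 2i, the same 2 fell under AA+2i, and none rose, where 2.83% and 4.41% of all tested genes were called lower. Ext1, which extends the heparan sulfate chain, had 42.9, 66.6 and 42.8 TPM with DMSO and 25.6, 25.9 and 19.6 with 2i (-0.89, SE 0.20, adjusted p = 0.0269). Sulf1, which trims sulfate from the chain and dampens FGF binding, had 43.0, 48.8 and 41.7 TPM with DMSO and 16.3, 15.4 and 10.2 with AA+2i (-1.48, SE 0.18, adjusted p = 0.000856), with 2i between them (-0.75, SE 0.18, adjusted p = 0.0387). The 2 calls with 2i were lost when the libraries of any 1 letter were left out. Those fits called 189 (without A), 10 (without B) and 32 (without C) of all tested genes lower, against 379 with all libraries. Of 26 adaptors and signal relay genes, which carry the signal from receptor to ERK, edgeR called 0 with 2i (0 at an unadjusted p under 0.05, 0 by DESeq2) and 1 with AA+2i. That gene, Gab2, a docking protein, had 1.35, 1.45 and 1.09 TPM with DMSO and 2.01, 2.02 and 1.82 with AA+2i (0.80, SE 0.21, adjusted p = 0.0359). Over all tested genes 4.42% were called with 2i and 8.34% with AA+2i.

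The targets and feedback inhibitors were the list with the most calls. Of 19 tested, 5 fell and none rose with 2i, where 2.83% of all tested genes were called lower, and the median change was -0.89. With AA+2i 7 fell and 1 rose, where 4.41% of all tested genes were called lower, and the median was -0.98. Dusp6, the phosphatase that ERK induces against itself, had 72.5, 58.1 and 56.9 TPM with DMSO and 75.2, 58.0 and 59.9 with AA. The 2i libraries had 7.14, 6.68 and 6.85 TPM and the AA+2i libraries 6.22, 6.19 and 6.63 TPM. Its changes were -3.0 with 2i (SE 0.21, adjusted p = 4.63e-05) and -3.09 with AA+2i (adjusted p = 3.52e-05), and the libraries with and without 2i lay far apart.

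Dusp4, a nuclear phosphatase of ERK, fell further with AA+2i, from 27.8, 37.5 and 31.2 TPM with DMSO to 3.78, 3.02 and 3.26 (-3.04, SE 0.21, adjusted p = 3.74e-05). It had 8.69, 8.53 and 10.7 TPM with 2i, and AA+2i was lower than 2i by -1.46 (SE 0.20, adjusted p = 0.00729). Spry1, a Sprouty inhibitor of receptor signalling, went from 3.79, 6.33 and 4.21 TPM with DMSO to 1.47, 0.96 and 1.53 with 2i (-1.65, SE 0.28, adjusted p = 0.00795). Etv1, an ETS factor that ERK activity induces, went from 58.6, 42.2 and 31.1 to 15.1, 10.6 and 7.08 TPM (-1.85, SE 0.38, adjusted p = 0.02). Spred1, an inhibitor of RAS activation, fell with AA+2i (-2.17, SE 0.47, adjusted p = 0.017). The 1 gene that rose with AA+2i, Il17rd, is a receptor-like inhibitor of FGF signalling and is named after its values were seen. In the 3 comparisons with DMSO these genes share the DMSO libraries with Fgf4.

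With AA alone, edgeR called 0 tested genes of the co-receptor, heparan sulfate, adaptor and target lists, where 1.34% of all tested genes were called. The counts at an unadjusted p under 0.05 were 3, 1, 0 and 1, and DESeq2 called 1, 1, 0 and 1. The counts of targets called lower depended on the libraries: with 2i they were 6 without the A libraries, 1 without B and 1 without C, and 4 without the library DMSO A. With AA+2i they were 8, 2, 3 and 7. With the GC correction they were 11 with 2i and 12 with AA+2i. The number of all tested genes called lower moved too. With 2i it was 379 in the uncorrected fit of all libraries, and 189, 10, 32 and 277 in the same order of fits. With AA+2i it was 591, and then 341, 14, 123 and 418. The GC correction gave 1000 with 2i and 1428 with AA+2i. Dusp6 was called with 2i under every one of 14 alternatives, from -3.15 to -2.82.

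**Figure D4:**
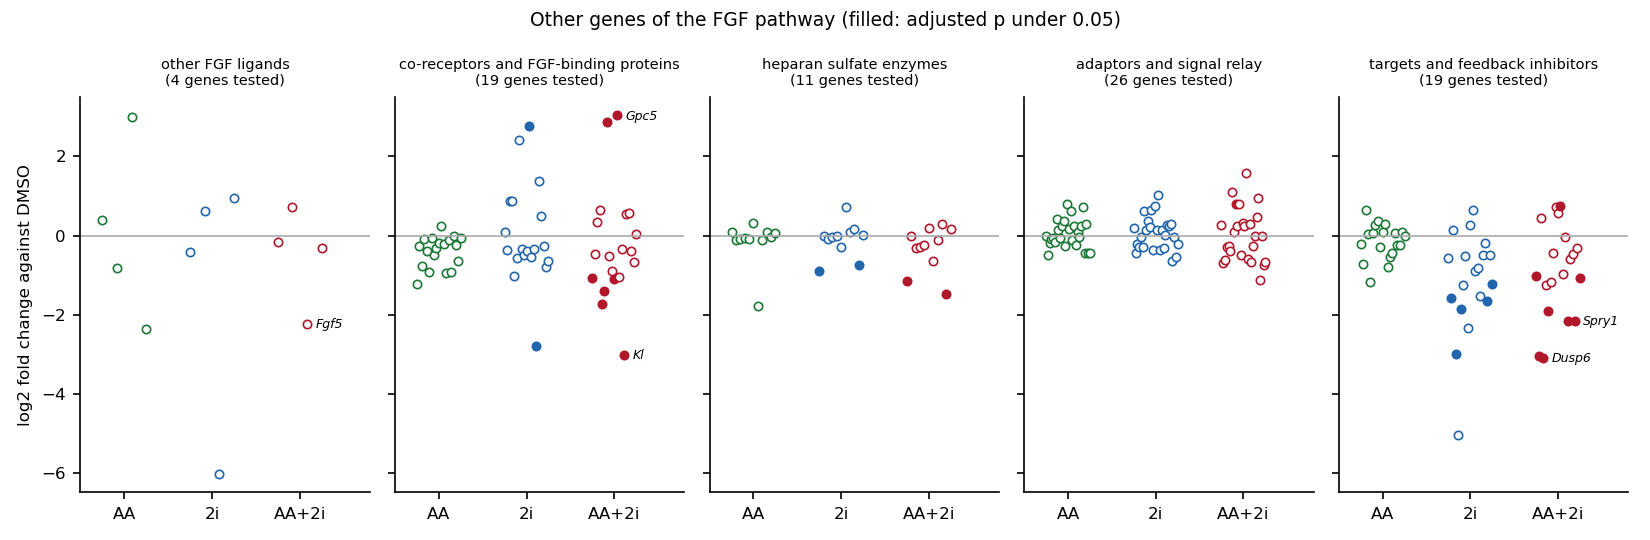
log2 fold change against DMSO (y axis) of every tested gene in 5 lists of FGF pathway genes, with AA, 2i and AA+2i (x axis). Each point is a gene, and filled points have an adjusted p under 0.05. No point is filled with AA. In the list of targets and feedback inhibitors 5 points are filled below 0 with 2i and 7 with AA+2i. The lowest point of the other ligands with 2i is Fgf5, which is at 0 counts there, so its fitted value is no measure of size.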

How the data were processed

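RNA of pre-iPSCs was sequenced after 48 h with DMSO, AA, 2i or AA+2i, in biological triplicate. The authors trimmed and filtered single-end reads made without strand information, aligned them with Bowtie2 to RefSeq genes of mm9 and ran RSEM 1.2.4. They deposited an expected count, a TPM and an FPKM per gene and library. The expected counts deposited by the authors are not normalized, and a read that fits several genes is divided among them. The TPM deposited by the authors share 1 total across libraries, and the deposited FPKM served only to recompute 1 malformed TPM cell (40.6 in AA C).

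The rounded counts entered edgeR 4.0.16 under R 4.3.3 (RLE factors, quasi-likelihood, 1 mean per treatment, 8 residual degrees of freedom) over the 13400 genes that reached 10 counts in 3 or more libraries, with a call at a Benjamini-Hochberg adjusted p under 0.05. Standard errors were derived from the F statistic and so restate the test. The study used EBSeq, which was not used here. Alternatives were TMM factors, DESeq2 1.42.0, limma 3.58.1 on log2(TPM + 1) and log2(TPM + 0.1), other count minimums, the replicate block, a GC correction (a loess curve per library, span 0.4, prior count 2, GC known for 13303 tested genes), leaving out each letter, fits of only the groups compared and, chosen after seeing the data, a fit without the library DMSO A, whose GC curve varied most. The tests were tried on simulated counts. Ratios were compared with an exact permutation test in scipy 1.17.1. Depth was 16173322 to 54392719 counts per library, and no pair of the 12 libraries was a copy: at least 14945 genes differed in rounded count.

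All members are named. From each list, up to 3 called genes per treatment with the largest change in the same direction in all letters are named, and for members with a mean of at least 1 TPM the 3 genes with the highest Pearson r. Others are marked as named after their values were seen. The members and lists were chosen with earlier results of these data known. Positions are from GENCODE vM1 (mm9), promoters from RefSeq (GRCm38.p6).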

Additional observations from a re-analysis of the deposited data

Results flagged for a closer look

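Fgf1 and Ext1 were picked out because AA moved them in opposite directions without and with 2i in all 3 letters. For Fgf1, AA gave 0.46 on the log2 scale against DMSO and -2.14 on top of 2i, an interaction of -2.60 that did not pass the threshold in edgeR (adjusted p = 0.387), on 6 to 11.4 expected counts per AA+2i library. For Ext1, AA gave 0.10 against DMSO and -0.26 on top of 2i, an interaction of -0.36 (adjusted p = 1.0).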

How the results depend on the processing

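Of the fold changes of the 5 tested ligands and receptors, 354 kept their direction and side of the threshold under an alternative, 30 lost a call, 9 gained one and 10 changed sign, none of them a called change. The sign changes were Fgfr1 with AA under the GC correction (-0.16), the GC correction with the replicate block (-0.15), without the library DMSO A (-0.32) and with letters left out (-0.16 to 0.26), Fgfr2 with AA with letters left out (-0.54 to 0.51), the interaction of Fgfr2 with letters left out (-1.08 to 0.23) and without the library DMSO A (0.18), and that of Fgfr3 with letters left out (-0.0004 to 0.33). The counts of members called were 0 (AA), 1 (2i), 3 (AA+2i), 2 (AA+2i against AA), 1 (AA+2i against 2i) and 0 (interaction). DESeq2 gave 1 with AA and 1 for the interaction. The GC correction with the replicate block gave 1 with AA, 2 with 2i and 2 for AA+2i against 2i. Fits of only the groups compared gave 0 with 2i, 0 with AA+2i and 1 for AA+2i against AA. No count minimum gave 1 with AA+2i, and 10 counts in every library, which leaves Fgf1 untested, gave 1 with AA+2i, 1 for AA+2i against AA and 0 for AA+2i against 2i. limma on log2(TPM + 1) gave 0 for AA+2i against 2i. With letters left out, and so fewer libraries, the counts were 0 to 1 with 2i, 0 with AA+2i, 0 to 1 for AA+2i against AA and 0 for AA+2i against 2i. The calls over all tested genes moved too. With AA+2i they went from 526 higher and 591 lower to 4 and 14 without B. The fit of only DMSO and AA+2i called 295 and 286. With AA, DESeq2 called 278 higher and 176 lower, against 116 and 63 in edgeR. Apart from the smaller fits, the cause was not tested. On the TPM scale the median of all genes shifted by -0.126 to -0.183 in the comparisons that add 2i to cells without it. Of the list counts, 167 differed by over 1.5 times under an alternative and 673 did not.

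The labels do not say that a letter marks a shared day or culture. Of 18 same-letter pairs of libraries, 15 deviated together (correlation of deviations above 0.1, mean 0.401, range -0.588 to 0.894), and 11 of 12 libraries were closest to their own letter. The replicate block called 4 members with AA+2i, the additional one being Fgfr1 (0.93, adjusted p = 0.0445), and left the other counts as they were. Of all 13400 tested genes it called 2051 higher and 2178 lower with AA+2i, against 526 and 591 without the block. With the GC correction as well, Fgfr1 was called with AA+2i against DMSO (0.43, adjusted p = 0.0343) and against AA (0.58, adjusted p = 0.0112). That fit called 2298 of all tested genes higher and 2537 lower against DMSO, and 1683 higher and 1996 lower against AA.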

Other observations

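Egr1, an immediate early gene of ERK signalling named after its values were seen, varied widely between replicates with AA+2i, at 0.35, 12.6 and 54.8 TPM. It had 63.7, 116 and 32.0 TPM with DMSO, 25.2, 32.1 and 31.7 with AA, and 0.22, 2.72 and 2.32 with 2i. None of its comparisons passed the test (2i against DMSO -5.05, SE 1.39, adjusted p = 0.0703). With EBSeq, the paper names Egr1 as the gene lowered most by 2i. Fos, from the same list and also named after its values were seen, had 6.99, 39.3 and 167 TPM in the same AA+2i libraries. In these libraries Dusp6 stayed between 6.19 and 6.63 TPM and Fgf4 between 24.2 and 29.4 TPM.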
